A study of Mus musculus with 4 samples.

Results

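The most enriched accessible regions of B16-F10 cells were 2953 stretches of the genome that ranked in the top 10% by fold enrichment in every one of 4 ATAC-seq libraries. ATAC-seq marks open chromatin by letting the Tn5 transposase insert adapters into accessible DNA, and the deposited data are lists of peaks, 1 per library. Overlapping peaks of the 4 lists were merged into 72251 regions on chromosomes 1 to 19, X and Y, of which 44000 were called in all 4 libraries. The regions were chosen by their fold enrichment: the highest fold of a region had to lie in the top 10% of these 44000 in each library, and the merged region had to be under 2500 bp. The fold divides the height of the pileup of reads at a summit by the background expected around it, as deposited by the authors. Because this value chose the regions, their folds and ranks are given as a description. The 40102 other regions under 2500 bp that were called in all 4 libraries stand beside them throughout.

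The cells are a mouse melanoma line. The 2 knockout (KO) libraries came from cells treated by CRISPR-Cas9 with a mixture of guides against Ssbp4, and the 2 wild-type (WT) libraries carry the label wild type, with a guide to an intergenic site of chromosome 2 named as the control in the protocol. Guides and Cas9 were delivered by electroporation in both arms, per the protocol, and the labels do not say whether the KO cells were a clone or a pool, nor that replicates were separate cultures, so that differences between replicates may be technical. All cells had been frozen and thawed before nuclei were isolated. The positions of genes in the build of these lists were not used here, so the KO label was not checked at Ssbp4.

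A nucleosome that is displaced by bound protein leaves a short stretch of DNA open to Tn5, and the promoters of active genes, enhancers and insulators bound by CTCF are the classes of element known for such openness. SSBP4 belongs to a family of single-stranded DNA-binding proteins that attach to LDB1, an adaptor through which LIM-domain and GATA factors act at enhancers and promoters. The comparison sets the accessible regions of melanoma cells labelled as Ssbp4 knockout beside those of cells labelled wild type. Loss of the protein was not checked here.

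The length limit removed nothing. All 2953 regions in the top 10% of every library were already under 2500 bp, and the longest spanned 2052 bp. Among the 945 longer regions called in all 4 libraries, the best placed was chr1:55275901-55278673 (GRCm39, the build of all positions given here), at 2773 bp, whose lowest rank was the 82.3rd percentile. It was followed by chr19:47525076-47528062 at 2987 bp and chr10:52292538-52295226 at 2689 bp. The longest most enriched regions were chr11:50181876-50183927 at 2052 bp, with folds of 10.6 and 12.9 in KO and 13.3 and 14.6 in WT, chr4:116413283-116415263 at 1981 bp and chr10:57670486-57672439 at 1954 bp. By median length the most enriched regions were not narrow beside the other regions as a whole, at 1249 bp against 1156 bp. The other regions had lower pileups, and lengths were not compared at like pileup. They were uniform. The 5th to the 95th percentile of length ran from 905 to 1569 bp, a 1.73-fold range, against 638 to 2011 bp and 3.15-fold for the others. The share of most enriched regions was 14.0% among those of 1200 to 1400 bp, 0.870% at 600 to 800 bp and 2.34% at 1600 to 2000 bp. By median length the name "narrow" therefore held only against the regions of 2500 bp and more.

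Fold enrichment had a median of 11.9 and 13.6 in KO replicates 1 and 2 and of 14.6 and 15.7 in WT replicates 1 and 2. The thresholds of the top 10% were 10.5 and 11.97 in the KO libraries and 13.2 and 14.4 in the WT libraries. The other regions had median folds of 4.84 and 5.67 in KO and 7.08 and 7.90 in WT. Within the most enriched regions the fold hardly varied, since the highest value was 1.93 and 1.79 times the lowest in KO and 1.74 and 1.73 times in WT.

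The pileup at the summit, which was recovered from each fold and p-value, varied far more. It ran from 192 to 4510 reads in KO replicate 1, 237 to 5618 in KO replicate 2, 209 to 6103 in WT replicate 1 and 236 to 6918 in WT replicate 2. Regions with a nearly equal fold thus differed 23.5-fold and 23.7-fold in pileup in the KO libraries and 29.2-fold and 29.3-fold in the WT libraries. The highest mean pileup lay at chr17:57338455-57339382, with 4510 and 5618 reads in KO and 6103 and 6918 in WT, and its folds were 12.7 and 14.0 in KO and 14.6 and 15.2 in WT. The lowest lay at chr10:38184394-38185487, with 193 and 245 reads in KO and 215 and 236 in WT, and its folds were 10.7 and 13.3 in KO and 13.6 and 14.7 in WT. Both were chosen after their values were seen. They show that a most enriched region can be a modest or a very high peak.

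**Figure D1:**
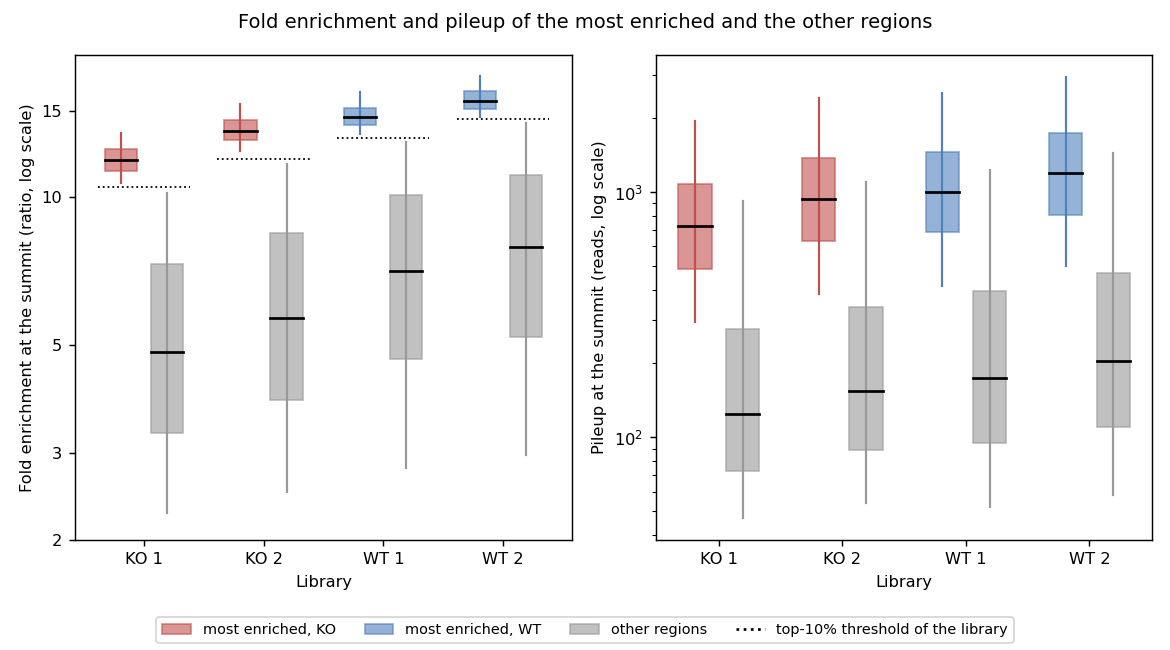
Fold enrichment (left) and summit pileup in reads (right) of the 2953 most enriched regions (coloured) and the 40102 other regions under 2500 bp (grey) in each library, on log axes. Boxes span the 25th to 75th percentile with the median as a line, whiskers the 5th to 95th, dotted lines mark the start of the top 10%, and the most enriched regions form a thin band by fold (medians 11.9 to 15.7) and a broad one by pileup (medians 725 to 1189 reads).

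The local background was higher where the pileup was higher. Its median at the most enriched regions was 59.6 and 66.8 reads in KO and 67.5 and 74.4 in WT, against 24.1 and 25.6 in KO and 23.1 and 24.2 in WT at the other regions. Relative to the genome-wide background of each library (17.2 and 17.4 reads in KO, 14.7 and 15.1 in WT), that was 3.47-fold and 3.83-fold in KO and 4.60-fold and 4.91-fold in WT. Across the 2953 regions the logarithms of pileup and background correlated at 0.992 in both KO libraries and at 0.994 in both WT libraries. The regions were chosen for a high ratio of these values and span a thin band of it, which fixes a correlation near 1, so nothing is read from it. The genome-wide level was taken as the lowest background recovered in each library. Only 31 and 15 of the 2953 regions in KO and 5 and 5 in WT had a background within 5% of it. Of the other regions 30.9% and 28.4% in KO and 28.3% and 28.5% in WT did. Regions of like pileup were not compared here. Whether the reads of a peak entered its own background was not tested.

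**Figure D2:**
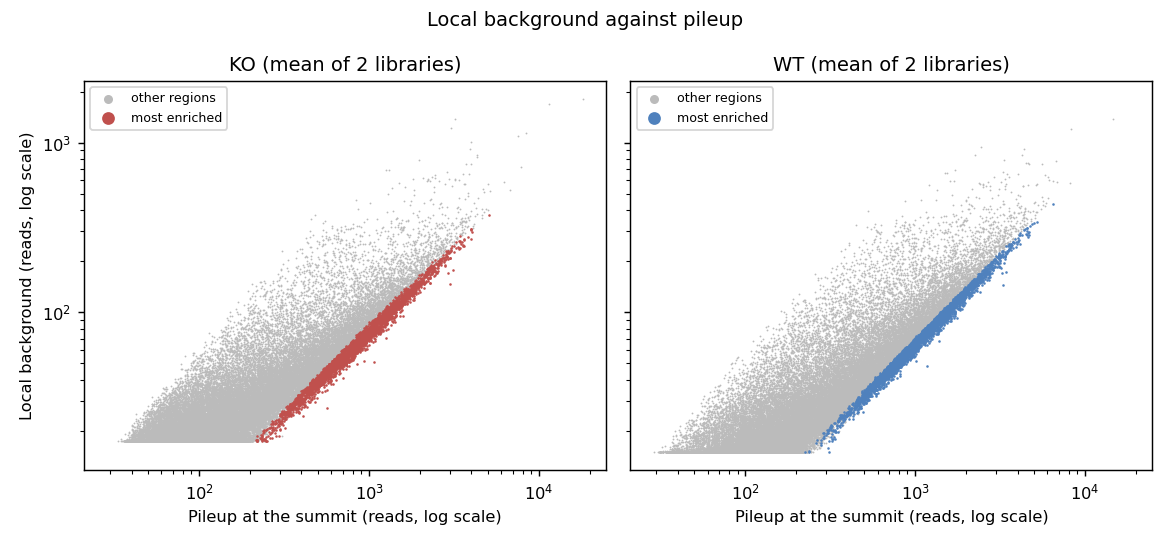
Local background against summit pileup, both in reads on log axes, for KO (left) and WT (right), each point being a region and each value the mean of 2 libraries. The most enriched regions (coloured) lie along the lower right edge of the cloud of other regions (grey), which is where a choice by high fold places them, and their pileups run from 192 to 6918 reads over the 4 libraries.

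Ranking by fold and ranking by strength of signal picked sets of regions that overlapped in part. Of the 2953 regions, 1573 (53.3%) were also in the top 10% of every library by p-value. That top set held 3721 of the 44000 regions, and 42.3% of it was most enriched. By pileup, 1298 (44.0%) were in the top 10% of every library. The set by pileup held 3826 of the 44000 regions, and 33.9% of it was most enriched. The lowest-placed most enriched region stood at the 60.1st and 59.8th percentile by pileup in KO and at the 51.9th and 50.7th in WT. The most enriched regions were thus high by signal, with medians between the 89.2nd and 90.1st percentile by pileup, but were not the strongest peaks as such.

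They stood alone. Of the 2953 regions, 2934 (99.4%, Wilson 95% interval 99.0–99.6) had no other accessible region, of any library, centred within 5000 bp. Among the other regions 68.2% had none, and among the 2528 regions in the top 10% by pileup that were not most enriched 73.4% had none. Measured from edge to edge, 254 of the 2953 (8.60%) had another region under 5000 bp away. That share was 43.7% among the other regions and 42.5% among the 2528. The share of most enriched regions was 0.262% where the next region lay under 1000 bp away, 0.131% at 3000 to 4000 bp, 4.75% at 4000 to 5000 bp and 14.4% at 20000 to 50000 bp. The regions of highest pileup made a smaller step, at 6.24% for 3000 to 4000 bp and 9.26% for 4000 to 5000 bp. The closest 2 most enriched regions were 4413 bp apart, only 81 lay within 10000 bp of another, and the median gap to the nearest was 167210 bp. The part that neighbouring reads play in the local background, and so in the fold, was not tested.

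**Figure D3:**
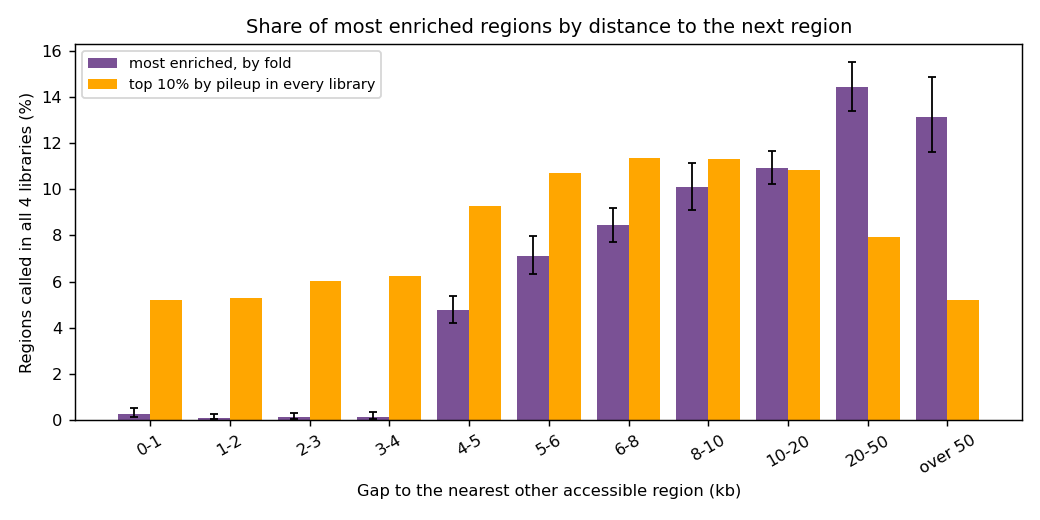
Share of the regions called in all 4 libraries that were most enriched by fold (purple, with Wilson 95% intervals) or in the top 10% by pileup in every library (orange), by the gap to the nearest other accessible region in kb. The purple share is 0.131% at 3 to 4 kb, 4.75% at 4 to 5 kb and 14.4% at 20 to 50 kb, while the orange share is 6.24%, 9.26% and 7.92%.

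The same held at a larger scale. A median of 39 other regions lay within 500000 bp of a most enriched region, against 56 for the other regions. Of the 8843 regions with 28 or fewer others in that window 11.5% were most enriched, and of the 8663 with 86 or more 3.56%. Regions lost in the KO, meaning called in both WT and neither KO library, lay within 50000 bp of 24.7% of the most enriched and 31.4% of the other regions. Regions gained in the KO lay that near to 4.98% of the most enriched and 8.06% of the other regions. The number of regions around was lower at the most enriched regions, and its part in these shares was not tested.

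Chromosome X carried the highest share. Of its 682 regions called in all 4 libraries, 122 (17.9%, Wilson 95% interval 15.2–20.9) were most enriched, against 6.54% of the regions of the autosomes and 6.71% overall. Chromosome 13 followed with 175 of 1458 regions (interval 10.4–13.8%) and chromosome 18 with 9.64% (8.05–11.5). The lowest shares were on chromosome 15 (4.00%), chromosome 6 (4.15%) and chromosome 11 (4.73%), and 0 of the 20 regions on chromosome Y were most enriched, which allows a share of up to 16.1% (Wilson). The intervals cover counting error only, and neighbouring regions are not independent.

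X was also the sparsest of these chromosomes, with a median of 16 other regions within 500000 bp, against 29 on chromosome 13, 78 on chromosome 6 and 81 on chromosome 11. Among regions with no other region centred within 5000 bp, 20.7% of those on X were most enriched, against 9.24% on the autosomes. The part of the number of regions around in these shares was not tested. The most enriched regions of X had a lower pileup than those of the autosomes. Their median pileups were 458.5 and 596.5 reads in KO and 610 and 697.5 in WT, against 745 and 959 in KO and 1025 and 1213 in WT on the autosomes. The 560 regions of X that were not most enriched had median pileups of 127.5 and 153 reads in KO and 180 and 207 in WT, close to the 124 and 154 in KO and 175 and 204 in WT of the other regions of all chromosomes. Their median folds were higher, at 6.22 and 7.20 in KO and 8.87 and 9.80 in WT. The other regions of all chromosomes had 4.84 and 5.67 in KO and 7.08 and 7.90 in WT. The median background of the 560 was lower, at 17.2 and 17.4 reads in KO and 16.1 and 17.8 in WT. That of the other regions was 24.1 and 25.6 in KO and 23.1 and 24.2 in WT. For the most enriched regions of X the median folds were 12.3 and 14.2 in KO and 14.9 and 15.9 in WT, against 11.9 and 13.6 in KO and 14.5 and 15.7 in WT on the autosomes. Their median background was 36.4 and 40.8 reads in KO and 40.0 and 44.6 in WT. On the autosomes it was 61.4 and 68.6 in KO and 68.9 and 76.0 in WT. The number of copies of X in these cells was not measured here.

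**Figure D4:**
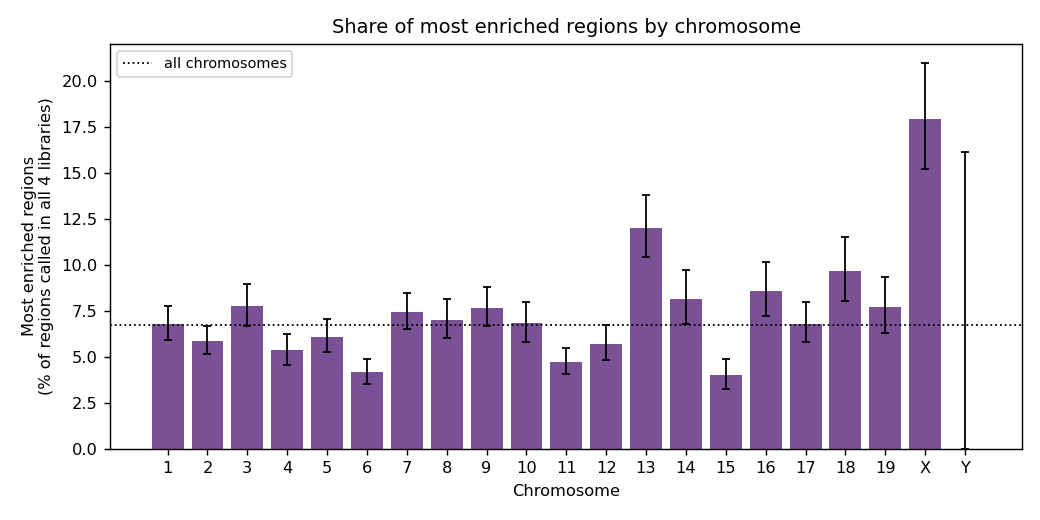
Share of most enriched regions among the regions called in all 4 libraries on each chromosome, in percent, with Wilson 95% intervals; the dotted line is the share over all chromosomes (6.71%). X (17.9%) and chromosome 13 (175 of 1458 regions) stand above the line, and chromosomes 15 (4.00%), 6 (4.15%) and 11 (4.73%) below it.

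Summits of the 4 libraries lay closer together at the most enriched regions than at the other regions. The distance between the lowest and the highest of the 4 summit positions had a median of 7 bp at the most enriched regions and 46 bp at the other regions, and all 4 summits shared a single base in 680 (23.0%) against 6.50% of the others. The distance was within 10 bp in 52.9% against 27.5% of the others. It was over 100 bp in 170 most enriched regions (5.76%), against 25.2% of the others. At the other regions this distance was smaller in higher peaks, at 57 bp under 200 reads and 26 bp from 1600 reads, so regions of like pileup were set side by side. At mean pileups of 200 to 400 reads the median distance was 8 bp for 144 most enriched regions and 36 bp for 7995 others. At 400 to 800 reads it was 13 bp for 972 and 34 bp for 5392. At 800 to 1600 reads it was 6 bp for 1287 and 29 bp for 2844. From 1600 reads it was 4.5 bp for 550 and 26 bp for 1011. Without KO replicate 1 the median over the regions then chosen was 4 bp. Between pairs of libraries the median distance at the most enriched regions was 1 bp for all 6 pairs. Summits shared their base in 42.4% of the regions between the KO libraries, in 47.8% between the WT libraries and in 42.7% to 46.0% across genotype, so libraries of different genotype shared a summit base at least as often as the KO libraries did. At the most enriched regions of KO replicate 1 the 10th to 90th percentile of summit position ran from 36.1% to 63.9% of the call. At the others it ran from 24.7% to 74.4%. In KO replicate 2 it was 36.8% to 63.2% against 25.9% to 73.1% at the others. In WT replicates 1 and 2 it was 37.1% to 63.6% and 36.4% to 63.7%. The others had 27.2% to 72.2% and 26.9% to 72.5% there.

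The 12 regions of highest rank, by the lowest of their 4 percentiles, included some of the shortest. First came chr18:90620313-90620754, at 442 bp, with folds of 20.2 and 21.4 in KO and 22.9 and 24.9 in WT. Its pileups were 1291 and 852 reads in KO and 1082 and 1272 in WT, so the genotypes overlapped. Next was chr16:57211486-57212039, at 554 bp, with folds of 18.8 and 21.4 in KO and 21.5 and 23.5 in WT, on 2711 and 3275 reads in KO and 2993 and 3590 in WT. The region chr13:45023047-45023500 followed with folds of 17.1 and 18.8 in KO and 18.6 and 19.8 in WT, and unlike most it had a neighbour 1025 bp away. On chromosome 11, chr11:108902472-108902926 had folds of 16.2 and 18.6 in KO and 19.1 and 20.1 in WT, and its summits lay within 3 bp of each other. The region chr3:5925401-5925886 had its summit at the same base in all 4 libraries, with folds of 15.9 and 17.9 in KO and 17.8 and 19.5 in WT. The shortest most enriched region of all, chr16:10961775-10962172 at 398 bp, had folds of 14.8 and 17.3 in KO and 17.8 and 19.7 in WT.

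Those 6 were under 600 bp, a length that only 15 of the 2953 regions had. The 15 lay on 9 chromosomes, had median folds of 13.3 and 16.3 in KO and 17.2 and 17.9 in WT, and had a median summit distance of 5 bp. Short regions were otherwise seldom most enriched, since 1393 regions under 600 bp were called in all 4 libraries (1.08% most enriched). Over all 2953 regions, length and mean fold had a Spearman correlation of -0.31 and length and mean pileup of 0.25, both given as a description.

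The other 6 of the 12 were longer. They were chr7:144894111-144895181 (1071 bp, folds 18.0 and 17.2 in KO and 19.6 and 20.7 in WT), chrX:74557555-74558536 (982 bp, folds 15.6 and 17.6 in KO and 18.2 and 18.9 in WT) and chr3:8988232-8989379 (1148 bp, folds 14.9 and 16.75 in KO and 17.6 and 19.0 in WT). Next to these stood chr6:3200823-3201590 (768 bp, folds 15.5 and 17.4 in KO and 17.6 and 18.5 in WT) and chr1:163230943-163231774 (832 bp, folds 14.6 and 16.9 in KO and 18.3 and 19.4 in WT). The last, chr1:129324758-129325850, was of another kind. Its folds overlapped between genotypes, at 18.9 and 21.1 in KO and 20.1 and 19.1 in WT, while its pileups did not, at 556 and 572 reads in KO and 314 and 308 in WT. Its local background was likewise 28.4 and 26.2 reads in KO and 14.7 and 15.1 in WT, the WT values being at the genome-wide level, so pileup and background were both higher in KO while the folds overlapped. Its nearest neighbour lay 65209 bp away.

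At the threshold, the regions inside and outside differed by little. Just inside stood chr9:96640712-96641591, which met the WT replicate 1 threshold at a fold of 13.182, chr10:121932499-121933677, which met that of WT replicate 2 at 14.392, and chr2:162896032-162897516, which met that of KO replicate 2 at 11.968. Just outside stood chr9:15190703-15192062, short of the WT replicate 1 threshold at 13.181, chr14:70680222-70681539, short of that of KO replicate 2 at 11.963, and chr19:28967397-28968667, short of that of WT replicate 2 at 14.386. A further 766 regions were in the top 10% of 3 libraries and missed it in the last, in KO replicate 1 (290) or WT replicate 2 (320) more often than in KO replicate 2 (63) or WT replicate 1 (93). Regions in the top 10% of both KO libraries and neither WT library numbered 430, and those in both WT libraries and neither KO library numbered 465.

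Between genotypes, the fold of the most enriched regions was lower in KO. In 2794 of the 2953 regions (94.6%) both KO folds lay below both WT folds, against 84.1% of all 44000 regions, and in 0 of 2953 (Wilson upper limit 0.130%) both KO folds lay above, against 1.13%. The median difference was -0.25 (log2 KO minus WT, SD 0.07 over regions), against -0.40 (SD 0.28) for the other regions and -0.37 over all regions. Divided by the median fold of the 44000 regions in the same library, the median of the most enriched regions was 2.32 and 2.27 in KO and 1.95 and 1.90 in WT. The groups did not overlap, and the log2 difference was 0.25. Since the regions were chosen for a high fold in every library, these values were not tested and nothing is read from the shares.

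The pileup, scaled in the same way, gave a smaller gap. Its median at the most enriched regions was 725 and 935 reads in KO and 1001 and 1189 in WT, and the median difference was -0.37 on the log2 scale, against -0.36 for the other regions. In 2148 regions (72.7%) both KO pileups lay below both WT pileups, against 64.3% of all regions. Divided by the library median over all regions, the median pileup was 5.22 and 5.40 in KO and 5.08 and 5.15 in WT. The groups did not overlap here either, and the log2 difference was 0.05, against 0.25 by fold. By this scaled pileup both KO libraries lay below both WT libraries in 13.8% of the most enriched regions (21.9% of all) and above in 52.4% (44.6% of all). The local background, by which the fold divides the pileup, had a median log2 difference of -0.13 at the most enriched regions and of 0.09 at the others. Since the fold contains the pileup, these values were not tested either.

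**Figure D5:**
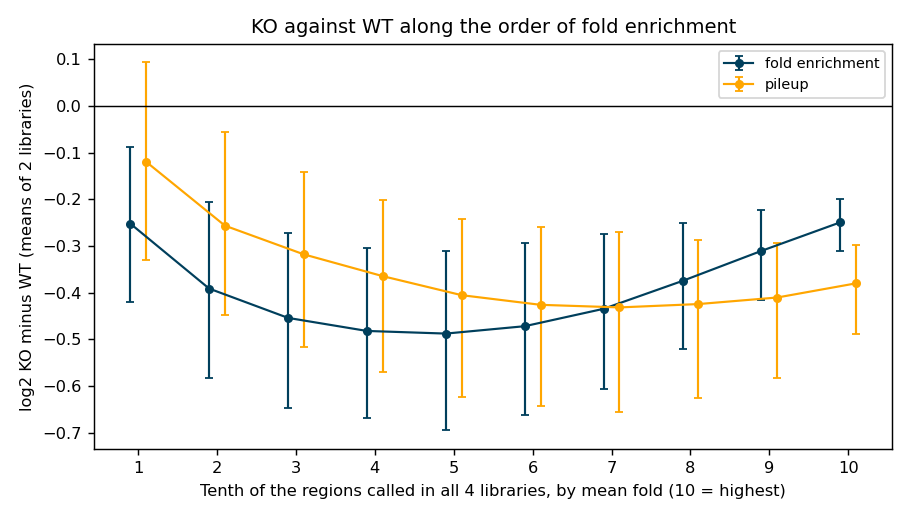
Median log2 difference between KO and WT (means of 2 libraries each) in fold enrichment (blue) and summit pileup (orange), for the 44000 regions in 10 equal bins by mean fold; bars span the 25th to 75th percentile of the regions. Bin 10, which holds all 2953 most enriched regions, differs by -0.25 in fold and -0.38 in pileup, and bin 5 by -0.49 and -0.41.

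All 2953 regions fell in the highest of 10 equal bins by mean fold, which holds 4400 regions. The median log2 difference in fold was -0.25 there, -0.49 in bin 5 and -0.25 in bin 1, the bin of lowest fold, so it was nearer 0 at both ends of the order. The difference in pileup was -0.38 in bin 10, -0.43 in bin 7 and -0.12 in bin 1. The regions also spread less at the top: the middle 50% of bin 10 lay between -0.31 and -0.20 in fold, against -0.69 to -0.31 in bin 5. The bins were made from the same folds, so these differences and spreads are given as a description.

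Ranks differed in both directions. By rank over the 44000 regions, 615 most enriched regions (20.8%) were lower in both KO libraries than in both WT libraries, against 27.4% of all regions, and 918 (31.1%) were higher in both, against 34.5%. Without KO replicate 1, KO replicate 2 or WT replicate 1 the lower share was 31.3%, 37.1% and 32.1%, with fewer libraries to satisfy and a share of 35.6%, 38.9% and 37.2% of all regions. Ranked among the 2953 alone, folds correlated (Spearman) at 0.77 between the KO libraries, at 0.81 between the WT libraries and at 0.48 to 0.73 across genotype. Among the other regions the values were 0.97, 0.98 and 0.90 to 0.93. The rule limits the 2953 to a thin band of fold, so nothing is read from their lower values.

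Ranked among the 2953, the region that stood lowest in KO relative to WT was chr6:55985129-55986735, with folds of 10.8 and 12.2 in KO and 15.1 and 17.1 in WT and pileups of 461 and 508 reads in KO and 676 and 775 in WT. It stood at the 8.67th and 1.96th percentile of the 2953 in KO and at the 72.4th and 89.7th in WT. The regions chr15:103666261-103667243, with folds of 10.6 and 12.1 in KO and 15.7 and 16.1 in WT, and chr9:49640504-49641444, with 10.5 and 13.4 in KO and 15.8 and 17.3 in WT, followed. Then came chr15:88712232-88713179, chr11:78114701-78116048 and chr11:11738225-11739200, whose mean percentile among the 2953 changed by -67.1, -66.7 and -65.5 points (KO minus WT). At all 6 both KO pileups lay below both WT pileups, as in 72.7% of the 2953 and 64.3% of all regions. The 6 were picked by their fold, which contains the pileup, so nothing is read from this.

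The region that stood highest in KO relative to WT was chr3:96342471-96343735, with folds of 12.6 and 13.7 in KO and 13.5 and 14.6 in WT, which is the 76.1st and 53.2nd percentile of the 2953 in KO and the 4.98th and 5.05th in WT. It was followed by chr9:25162913-25164785, with folds of 13.03 and 14.0 in KO and 14.2 and 14.5 in WT, and by chr12:4769605-4770735, with 12.4 and 13.7 in KO and 13.5 and 14.5 in WT. The regions chr15:93172681-93174189, chr17:64638376-64639946 and chr1:165287890-165289203 stood higher in KO by 56.9, 56.4 and 56.1 percentile points. The 6 of higher rank in KO had pileups of 1113 to 3747 reads in KO and 1390 to 4667 in WT, against 218 to 785 in KO and 333 to 1034 in WT at the 6 of lower rank. The 6 of higher rank still had a lower mean log2 pileup in KO than in WT. It was higher in KO at only 11 of the 2953 (0.373%), against 9.30% of all regions.

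By pileup, 3 of the 2953 regions had both KO libraries above both WT libraries (0.102%, against 3.17% of all regions). They were chr1:129324758-129325850, described above, chr12:67105941-67106701 and chrX:75642156-75642741, and were singled out after their values were seen. The rule asks for a high fold in every library, and the fold contains the pileup, so nothing is read from the share. At chr12:67105941-67106701 the pileups were 772 and 843 reads in KO and 610 and 598 in WT, and the background was 61.9 and 58.4 in KO and 42.3 and 39.2 in WT. At chrX:75642156-75642741 the pileups were 867 and 1011 reads in KO and 756 and 681 in WT, on a background of 67.1 and 65.5 in KO and 48.9 and 44.2 in WT. As at the first of the 3, the background was higher in KO together with the pileup, and the folds were not both above those of WT.

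Larger differences stood at the opposite end. The log2 difference in pileup was below -1 in 8 of the 2953 (0.271%), against 4.22% of all regions. The rule limits this share in the same way, so nothing is read from it. At chr3:49640224-49641678 the log2 difference in pileup was -1.26, with 334 and 408 reads in KO and 803 and 972 in WT. At chr7:102048080-102049397 there were 444 and 541 reads in KO and 1057 and 1227 in WT, and at chr1:131433873-131434690 553 and 780 in KO and 1313 and 1556 in WT. These were the 3 deepest of the 8 and were also chosen after their values were seen. Their log2 differences in fold were -0.36, -0.34 and -0.35.

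Call length gave no separation. The median call at the most enriched regions was 1210 and 1144 bp in KO and 1172 and 1157 bp in WT, a difference of 12.5 bp within the spread between KO replicates (two-sided exact permutation test over libraries, p = 1, where 2 against 2 allows no p below 0.333). Without KO replicate 1 the difference was -18.5 bp, and without KO replicate 2, WT replicate 1 or WT replicate 2 it was 46, 20.5 and 1.5 bp. Both KO calls were shorter than both WT calls in 17.6% of the most enriched regions (30.2% of all) and longer in 19.2% (15.2% of all). A region held more than 1 call in 3 and 5 of the 2953 most enriched regions in KO and in 4 and 0 in WT. Of the other regions 0.43% and 1.21% did in KO and 0.86% and 1.00% in WT.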

How the data were processed

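ATAC-seq of 2 KO and 2 WT libraries of B16-F10 cells was analysed from the authors' deposited peak lists, 1 per library and not pooled. Peaks were called with MACS2 on GRCm39, per the submitters' processing notes. Tool versions, read mapping, duplicate removal, any Tn5 shift and any control library were not given in the sources used here. The authors deposited for each call a display score, not used here, the fold enrichment of the summit (a ratio), and −log10 p-values and −log10 q-values. Read totals are unknown, and KO replicates 1 and 2 had 50068 and 57698 calls and WT replicates 1 and 2 had 59215 and 63080.

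Positions were made 1-based and calls overlapping by 1 bp or more merged with pandas 2.3.3. Pileup and background were solved from fold = (pileup + 1)/(background + 1) and the Poisson p-value, and the pileup came within 0.05 of a whole number for at least 99.998% of calls. The steps were tested on simulated lists. The members, named regions (the 12 of highest rank, the 6 in each direction with the largest difference in rank among members and no overlap between genotypes, 3 on each side of the threshold) and comparisons were chosen with earlier results of these data known. The gene, promoter and miRNA tables at hand belong to another build, so genes, gene lists, promoters, motifs and sequences were not analysed here. The difference in call length was tested with the exact permutation test (scipy 1.17.1), and shares carry Wilson 95% intervals. Alternatives changed the overlap, q threshold, top share, length limit and ranking measure, or left out a library.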

Additional observations from a re-analysis of the deposited data

How the results depend on the processing

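The number of regions changed with the share taken, to 1240 for the top 5% and 6594 for the top 20%. It was 2641 to 3645 under the other alternatives and 3093 to 3658 when a library was left out. The gap in scaled fold between KO and WT was positive in all alternatives, from 0.23 to 0.29 on the log2 scale where fold was kept and 0.05 by pileup. It was not tested, since fold chose the regions. The share of regions lower in rank in KO was 19.1% for the top 5%, 22.8% for the top 20%, 5.14% when regions were chosen by p-value and 3.59% when chosen by pileup, an alternative added after the data were seen, all against 27.4% of the 44000 regions. It was 28.4% to 37.1% without a library, against 35.03% to 38.9% of all regions. Each choice holds the regions to a top share of every library used, so nothing is read from these gaps. The median distance between summits was 15 bp for the top 20%, 11 bp by p-value, 15 bp by pileup and 4 to 5 bp without a library, where fewer summits are compared. The difference in call length changed sign to -4.25 bp by p-value and -8 bp by pileup and ran from -18.5 to 46 bp without a library. The cause of these changes was not tested. With replicate numbers as a replicate block, 27.0% of the regions were lower in rank in KO within both numbers, against 33.1% of all regions, and the gap in scaled fold was 0.25 (0.25 and 0.26 within the numbers). The deviations of same-numbered libraries correlated at 0.15 over regions, and the labels do not say that a number marks a shared batch. The shares of promoters and motifs, and their alternatives, were not run because no annotation of this build was used.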
